A study of Mus musculus with 6 samples.

Results

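A set of 32 cell cycle genes was followed in the mouse retina at postnatal day (P) 17, out of 31053 genes in the count tables. The genes were taken by symbol as S phase and mitotic genes, by a rule that uses no measured value, although earlier results of these data were known when the list was drawn up, and all 32 symbols were found. They fall into 12 DNA replication genes, 10 cyclins, kinases and mitotic exit factors, and 10 chromosome and spindle genes. The study compared retinas with oxygen-induced retinopathy (OIR) with normal retinas by droplet single-cell RNA sequencing, with 3 samples per group. OIR pups were kept in 75% oxygen from P7 to P12, which stops the growth of retinal vessels, and then in normal air until they were killed at P17. Ctrl pups were normal pups of the same age, P17, and neither group carried a gene deletion that the labels name. Each sample pooled the retinas of 2 mice, so that no value belongs to a single animal, and the labels used here give no strain or sex.

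The labels call the tissue endothelial cells, but the barcodes held the cell types of a whole retina. Of 38995 barcodes with at least 500 detected genes and at most 20% mitochondrial counts, 25218 fell in clusters with rod markers and 266 in clusters with markers of vascular endothelial cells (VECs). Cell types were rebuilt here by clustering without the cell cycle genes and named by markers, and they carry "-like" for that reason. Another 1605 barcodes stayed unnamed, in clusters led by Kcng4, a marker listed for cone bipolar cells, or by Adarb2. The samples held between 15788524 and 42606878 unique molecular identifiers (UMIs, which count RNA molecules), and the median per kept barcode lay between 1450 and 4937. Both replicate 1 samples were the deepest of their group and the richest in non-rod cells. Pairs of libraries shared between 9 and 34 cell barcodes. Xist RNA, which female cells make, was at 1744 and 2007 CPM (UMIs scaled to 1000000 UMIs) in Ctrl replicates 2 and 3 and at most 0.465 in the other 4 samples, so that sex and group partly coincide.

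Cells that divide copy their DNA in S phase and separate the copies in mitosis, and a different set of genes is switched on for each step. In S phase the MCM helicase (Mcm2 to Mcm7) opens the DNA, Pcna clamps the polymerase onto it, and Rrm1, Rrm2, Tyms and Tk1 supply nucleotides. For mitosis, Cdk1 with the cyclins Ccnb1 and Ccnb2 drives entry, Aurka, Aurkb, Bub1 and Plk1 control the spindle, and Cdc20 and Ube2c lead to exit. Mki67, Top2a, Birc5, Nusap1, Tpx2 and the kinesins and centromere proteins organise chromosomes and microtubules. In the mouse retina neurons and Müller glia have left the cycle well before P17, while vessels regrow in OIR at this age through the division of vascular cells.

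Genes of these phases are known to share promoter motifs, the E2F site for S phase and the cell cycle homology region (CHR, TTTGAA) with CCAAT boxes for mitosis. Promoters of 28 of the 32 genes were matched by symbol in RefSeq sequences of mouse build GRCm38.p6, and the 250 bases before the start site were searched on both strands. A CCAAT box (CCAAT) was present in 24 of 28 (85.7%), against 34.5% of the 27025 promoters of all genes, and all 8 matched genes of the cyclin and kinase group had one. A CHR was present in 9 of 28 (32.1%) against 16.3% of all promoters, and in 1 of 11 DNA replication genes, 4 of 8 cyclin and kinase genes and 4 of 9 chromosome and spindle genes. A CHR and a CCAAT box occurred together in these same 9 promoters, against 5.73% of all promoters. An E2F site, searched as TTTCGCGC, TTTGGCGC or TTTCCCGC, was present in 4 of 28 (14.3%) against 1.59%. The CCAAT and CHR letters cannot be read as each other, but an E2F match can overlap another on the opposite strand, as in Mcm6, and a match in a promoter is a description and not a measured binding site. The 150 bases before the start site are shown 5′ to 3′ for 5 genes, with every motif match in capitals on either strand. Hmgb2 is the gene called in most cell types in the tests below, and Mcm6 shows E2F sites without a CHR. Mki67, Top2a and Cdk1 are among the mitotic genes used below to pick out barcodes in division.
Hmgb2, chr8:57511693-57511842, plus strand: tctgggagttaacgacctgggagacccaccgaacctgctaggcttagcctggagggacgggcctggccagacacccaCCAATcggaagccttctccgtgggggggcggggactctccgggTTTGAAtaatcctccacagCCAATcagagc
Mki67, chr7:135716380-135716529, minus strand: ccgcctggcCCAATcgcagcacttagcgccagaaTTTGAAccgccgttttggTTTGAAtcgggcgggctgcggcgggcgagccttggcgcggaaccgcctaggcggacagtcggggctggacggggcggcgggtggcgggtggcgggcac
Top2a, chr11:99024190-99024339, minus strand: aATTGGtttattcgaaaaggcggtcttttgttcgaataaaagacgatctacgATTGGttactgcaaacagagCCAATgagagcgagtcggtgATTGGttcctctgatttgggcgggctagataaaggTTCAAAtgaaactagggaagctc
Cdk1, chr10:69352913-69353062, minus strand: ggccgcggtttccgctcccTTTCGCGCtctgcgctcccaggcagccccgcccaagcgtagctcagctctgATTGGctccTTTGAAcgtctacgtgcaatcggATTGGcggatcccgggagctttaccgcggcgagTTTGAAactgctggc
Mcm6, chr1:128359706-128359855, minus strand: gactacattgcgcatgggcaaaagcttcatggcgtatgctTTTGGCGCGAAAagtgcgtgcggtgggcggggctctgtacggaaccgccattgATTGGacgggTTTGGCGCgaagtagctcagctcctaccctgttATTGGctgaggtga
The 4 mitotic and chromatin genes show both CCAAT and CHR letters within this window, and the CHR of Hmgb2 lies between its pair of CCAAT boxes.

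The 32 genes together gave 59119 of the 157412510 UMIs in kept barcodes. Hmgb2, which encodes a DNA-bending chromatin protein of dividing and immature cells, gave 30891 of them (52.3%), and Pcna gave 8623 (14.6%). All other members were rare, from 2218 UMIs of Rrm1 down to 91 of Bub1. Levels are given in CPM, UMIs scaled to a total of 1000000 UMIs in the same barcodes, and since each molecule is counted at its 3′ end they were not scaled by gene length and are compared between samples, not between genes.

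Over all kept barcodes, 26 of the 32 genes had their highest level in OIR replicate 1, against 22.5% of the 15159 genes with at least as many UMIs as Bub1. In 10 of the 32 genes all 3 OIR levels lay above all 3 Ctrl levels, against 10.3% of those 15159 genes, and in 0 of the 32 they lay below, against 3.07%. The 10 were Rrm1, Tyms, Mcm3, Tk1, Ccna2, Cdc20, Aurkb, Bub1, Hmgb2 and Mki67. Among DNA replication genes, Pcna was at 53.0, 60.4 and 49.8 CPM in OIR and 54.9, 54.4 and 58.6 in Ctrl, levels that overlapped. Rrm1, a subunit of ribonucleotide reductase, was at 17.8, 14.8 and 14.8 in OIR and 12.8, 12.03 and 8.88 in Ctrl, without overlap. Mcm7 was at 13.98, 12.2 and 13.1 in OIR and 12.9, 12.5 and 16.6 in Ctrl.
Of these 3 abundant replication genes, Rrm1 was the only one with all OIR levels above all Ctrl levels.
Among the 3 most abundant cyclin and kinase genes OIR replicate 1 was the highest sample. Ube2c, the ubiquitin-conjugating enzyme of mitotic exit, was at 21.3, 2.41 and 0.417 CPM in OIR and at 0.836, 0.583 and 0.534 in Ctrl. Cdk1 was at 15.4, 2.07 and 0.626 in OIR and 1.52, 0.530 and 0.401 in Ctrl. Ccna2, the cyclin of S and G2 phase, was at 9.38, 5.46 and 5.67 in OIR and 2.03, 4.82 and 5.21 in Ctrl.
OIR replicate 1 was also the highest sample for these chromosome and spindle genes. Mki67, the proliferation marker Ki-67, had 363, 30 and 22 UMIs in OIR (9.95, 1.27 and 0.917 CPM) and 13, 6 and 11 in Ctrl (0.329, 0.318 and 0.734 CPM). Top2a, the topoisomerase that untangles chromosomes, had 402, 45 and 9 UMIs in OIR (11.0, 1.90 and 0.375 CPM) and 26, 2 and 2 in Ctrl (0.659, 0.106 and 0.134 CPM). Birc5, the survivin subunit of the Aurora B complex, was at 12.6, 1.69 and 0.584 in OIR and 1.11, 0.265 and 0.534 in Ctrl, and the kinesin Cenpe at 9.71, 6.30 and 4.96 in OIR and 3.47, 5.67 and 5.27 in Ctrl.

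The remaining members were rarer. Tyms, the thymidylate synthase, was at 15.2, 10.2 and 11.3 CPM in OIR and 8.16, 7.69 and 8.08 in Ctrl, without overlap, and Mcm3 at 5.35, 3.21 and 3.29 in OIR and 2.76, 1.75 and 1.67 in Ctrl, also without overlap. Tk1, the thymidine kinase, was at 4.83, 0.508 and 0.584 in OIR and 0.253, 0.424 and 0.334 in Ctrl. Pclaf was at 13.1, 3.17 and 4.55 in OIR and 0.963, 3.02 and 6.21 in Ctrl, overlapping.
Tyms, Mcm3 and Tk1 were thus higher in each OIR sample than in each Ctrl sample, with the highest level of Tk1 in OIR replicate 1.
Cdc20, the activator of mitotic exit, was at 8.44, 1.48 and 1.42 in OIR and 1.22, 0.848 and 0.401 in Ctrl, and Aurkb at 3.89, 0.508 and 0.167 in OIR and 0.0760, 0.0530 and 0.0668 in Ctrl, both without overlap. Ccnb2 was at 9.02, 1.02 and 0.417 in OIR and 0.431, 0.265 and 0.267 in Ctrl, and Cenpf, a centromere protein, at 9.95, 2.54 and 1.67 in OIR and 0.633, 1.70 and 2.00 in Ctrl. Kif23, like Mcm7 and Plk1, had its highest level in a Ctrl sample, 4.46 in Ctrl replicate 1, beside 3.78 in OIR replicate 1.
The minichromosome genes Mcm2, Mcm4, Mcm5 and Mcm6, Rrm2, Aurka, Plk1, Ccnb1, Kif11, Nusap1 and Tpx2 all had overlapping groups, and Bub1 did not. Bub1 had 79, 4 and 3 UMIs in OIR and 2, 2 and 1 in Ctrl, and Aurkb 142, 12 and 4 in OIR and 3, 1 and 1 in Ctrl. Outside OIR replicate 1 the separation of these rarest members rests on few molecules.

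**Figure D1:**
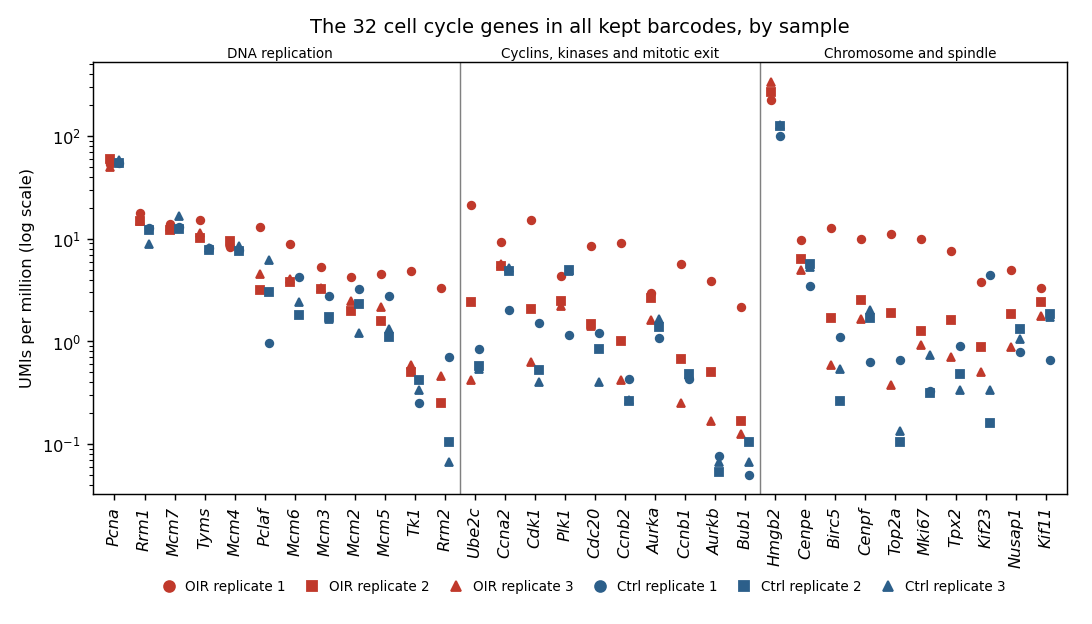
Level of each of the 32 genes in all kept barcodes (vertical axis, CPM, log scale), ordered within 3 role groups by total UMIs; red symbols are OIR samples and blue symbols Ctrl samples, with the shape giving the replicate. OIR replicate 1 (red circles) is the highest sample for 26 genes, and Hmgb2 is the only gene of the list above 100 CPM in several samples, with OIR at 226, 266 and 338 and Ctrl at 99.6, 126 and 129.

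In a test over all kept barcodes no member passed. Raw counts were summed per sample and compared with edgeR's quasi-likelihood test, and a call needed an adjusted value under 0.05 (Benjamini-Hochberg, over all genes tested) and a change of 0.25 or more on the log2 scale. Of the 30 members with enough counts (all but Aurkb and Bub1) 0 were called (9 at an unadjusted p under 0.05), where 0% of the 15492 genes tested were called higher and 0.00645% lower. Birc5, just over that p at 0.0505 in edgeR, ranked 1015 by p among these 15492 genes. The log2 fold change of Mki67 was 3.08 ± 1.08 (SE, edgeR adjusted p = 0.720) and that of Top2a 3.67 ± 1.32 (edgeR adjusted p = 0.738). The median over the 30 members was 0.90, beside -0.03 over all genes tested, and 26 of the 30 were positive. Without OIR replicate 1 that median was 0.35, and 23 of 30 were positive. Hmgb2 had a log2 fold change of 1.11 ± 0.206 with an edgeR adjusted p of 0.464. Replicates with the same number deviated together here, and with the replicate number as a block Hmgb2 was called at an adjusted p of 0.0342 in edgeR. DESeq2 without the block also called it (adjusted p = 0.00117). In sums over all barcodes, a change in the mix of cell types and a change of RNA per cell cannot be told apart.

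Within cell types, Hmgb2 was the member called most often. The only other call, Pclaf in VEC-like sums, had enough counts for a test through its OIR levels alone. It is therefore not read as a result and is described with the VECs. Hmgb2 was higher in OIR than in Ctrl in rod-like, cone-like, rod bipolar-like, cone bipolar-like and Müller-like sums, and in each of these the 3 OIR levels lay above the 3 Ctrl levels. Hmgb2 (ENSMUSG00000054717, chr8:57511907-57515999 on GRCm38, plus strand, protein-coding) overlaps no other gene on its strand in the tables. The types were measured in the same 6 samples, so that they are not separate replications.

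In rods, the photoreceptors of dim light, Hmgb2 was at 360, 329 and 423 CPM in OIR and 232, 172 and 170 in Ctrl. The log2 fold change was 0.80 ± 0.152 (SE, n = 3 per group), with an adjusted p of 0.0316 in edgeR. Hmgb2 was 1 of 15 members tested that passed, and 1.62% of the 11485 genes tested in rods were called higher and 1.04% lower.
In cones, the photoreceptors of daylight, it was at 175, 260 and 351 in OIR and 105, 98.9 and 73.9 in Ctrl. A log2 fold change of 1.39 ± 0.212 was found, with an edgeR adjusted p of 0.0109, with 1 of 8 members called and 0.172% of all genes tested called higher and 0.101% lower.
In rod bipolar cells, which carry the rod signal inward, it was at 74.1, 112 and 143 in OIR and 41.9, 22.9 and 23.5 in Ctrl. This gave a log2 fold change of 1.68 ± 0.256 and an edgeR adjusted p of 0.00251, with 1 of 6 members called, beside 1.39% of genes called higher and 1.24% lower.
In cone bipolar cells it was at 147, 127 and 211 in OIR and 45.7, 40.6 and 21.1 in Ctrl. The log2 fold change was 1.99 ± 0.242, the largest of these 5 types, and the edgeR adjusted p was 0.00160, with 1 of 5 members called, beside 0.572% of genes called higher and 0.198% lower. The unnamed barcodes are not in these sums. In them Hmgb2 was at 125, 106 and 159 in OIR and 37.5, 36.1 and 32.5 in Ctrl, without a test.
In Müller glia, the supporting cells that span the retina, it was at 192, 266 and 315 in OIR and 105, 110 and 71.8 in Ctrl. The log2 fold change was 1.34 ± 0.223 and the edgeR adjusted p 0.0334, with 1 of 10 members called, beside 0.637% of genes called higher and 0.273% lower.

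The remaining types gave no call for Hmgb2. In amacrine-like sums the levels were 40.6, 73.2 and 101 CPM in OIR and 23.5, 21.6 and 25.1 in Ctrl, without overlap, but the edgeR adjusted p was 0.196 for a log2 fold change of 1.57 ± 0.371 (0 of 2 members called, 0.1% of genes higher and 0.0167% lower). In microglia-like sums they were 183, 179 and 223 in OIR and 212, 62.8 and 155 in Ctrl and overlapped (log2 fold change 0.35 ± 0.316, edgeR adjusted p = 0.818). In RPE-like sums, from retinal pigment epithelium, they were 102, 232 and 187 in OIR and 91.4, 51.7 and 253 in Ctrl and overlapped (edgeR adjusted p = 0.740, with 0% of the genes tested called higher and 0.058% lower). Whether the difference in one type was larger than in another was not tested.

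**Figure D2:**
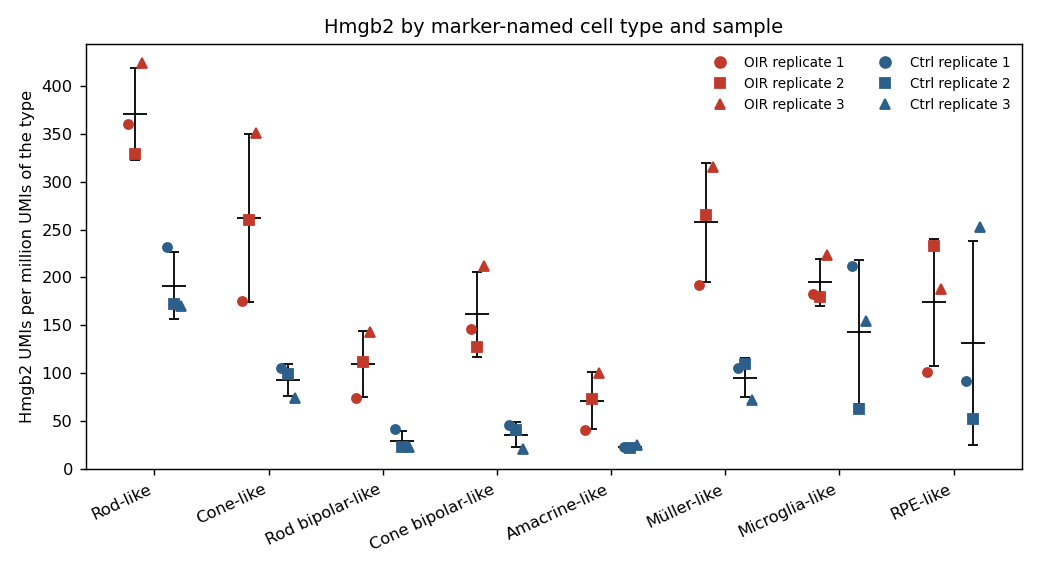
Hmgb2 in 8 marker-named cell types (vertical axis, CPM, linear from 0); red symbols are the 3 OIR samples, blue symbols the 3 Ctrl samples, and the black bars give the mean and SD of each group. The groups lie apart from rod-like to Müller-like sums, as in cone bipolar-like sums (127 to 211 against 21.1 to 45.7), and overlap in microglia-like and RPE-like sums.

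The calls differed in how far they held. In rod bipolar-like and cone bipolar-like sums Hmgb2 was called in all 14 alternative settings. In rods the call was lost without OIR replicate 1, 2 or 3 (edgeR adjusted p = 0.0554, 0.0929 and 0.156) and without Ctrl replicate 2 or 3 (0.204 and 0.179). In cones it was lost without OIR replicate 3 (adjusted p = 0.0721 in edgeR) or Ctrl replicate 3 (0.0934). In Müller-like sums it was lost without OIR replicate 2 or 3 (adjusted p = 0.0735 and 0.102 in edgeR) and without Ctrl replicate 2 or 3 (0.111 and 0.0899). The log2 fold change of Hmgb2 in these fits stayed between 0.72 and 0.96 in rods, 1.15 and 1.59 in cones, and 1.18 and 1.49 in Müller-like sums. A term for the samples with Xist RNA, which leaves Ctrl replicate 1 as the only control without it, gave 0.53 in rods (edgeR adjusted p = 0.226), 1.24 in cones (0.129) and 1.18 in Müller-like sums (0.158). With that term Hmgb2 was still called in rod bipolar-like sums (edgeR adjusted p = 0.0100) and cone bipolar-like sums (0.000967).

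Droplets of other cells also hold free rod RNA, and Hmgb2 was higher in rod-like than in other neuron sums, so rod markers were set beside it. The 6 rod markers together averaged 5078 ± 1634 CPM (SD, n = 3) in Müller-like sums of OIR and 7803 ± 3818 in Ctrl. In rod bipolar-like sums they averaged 2069 ± 352 in OIR and 2175 ± 657 in Ctrl, and in cone bipolar-like sums 1645 ± 656 and 2158 ± 797. In cone-like sums they averaged 5608 ± 4479 and 4797 ± 3390, and in amacrine-like sums 2144 ± 1041 and 1789 ± 270.1. The groups overlapped in all 5 types. Since Hmgb2 was itself higher in OIR rods and its share of free RNA was not estimated, the part of free rod RNA in the Hmgb2 values of other types was not tested.

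In edgeR without a block, other members gave no call in the neurons and glia, though some lay apart. In rods the kinase Plk1 was at 3.42, 3.11 and 3.46 CPM in OIR and 4.21, 8.79 and 7.003 in Ctrl, without overlap (log2 fold change -1.18 ± 0.296, edgeR adjusted p = 0.0742). Mcm7 was at 11.1, 11.2 and 10.6 in OIR and 13.6, 14.2 and 19.3 in Ctrl, again without overlap (log2 fold change -0.68 ± 0.177, edgeR adjusted p = 0.0813). Plk1 was called lower by DESeq2 (adjusted p = 0.0260) and in edgeR without a filter on low counts (0.0411), and both genes were called without Ctrl replicate 1 (edgeR adjusted p = 0.0124 for Plk1 and 0.0349 for Mcm7). With the Xist term the log2 fold changes were -0.48 for Plk1 and -0.45 for Mcm7 (edgeR adjusted p = 0.588 and 0.453).
Both were on the lower side in OIR, opposite to Hmgb2 and to Mcm6 in the same rods. Mcm6 was at 1.18, 1.10 and 1.26 CPM in OIR and 0.574, 0.651 and 0.732 in Ctrl, without overlap (log2 fold change 0.67 ± 0.390, edgeR adjusted p = 0.405). In both bipolar types, where its counts were too few for a test, Mcm6 was also higher without overlap. Mcm6 overlapped in cone-like and microglia-like sums. Mcm7, lower in OIR rods, was higher in OIR without overlap in amacrine-like sums, at 17.1, 11.3 and 16.8 CPM against 10.1, 8.65 and 7.16 in Ctrl. Its counts there were too few for a test. No share of all genes lying apart within a type was set beside these levels.
In rod bipolar-like sums Cenpe was at 6.89, 17.1 and 6.48 in OIR and 2.90, 3.06 and 2.05 in Ctrl (log2 fold change 1.72 ± 0.446, edgeR adjusted p = 0.0574). There the replicate numbers paired the samples, and with the block Cenpe was called (edgeR adjusted p = 0.0175). In Müller-like sums Cenpe lay apart the other way, at 1.95, 1.42 and 1.26 CPM in OIR and 2.39, 2.99 and 1.97 in Ctrl. In microglia-like sums it lay higher in OIR, on a few UMIs. Neither type had enough counts of Cenpe for a test. In cones, Pcna was at 93.1, 91.6 and 82.7 in OIR and 94.2, 98.0 and 103 in Ctrl, and Mcm2 at 3.49, 2.16 and 3.97 in OIR and 5.06, 6.56 and 6.57 in Ctrl, both without overlap and both uncalled in edgeR (adjusted p = 0.796 and 0.512).
The median log2 fold change of the members tested was -0.04 in rods (15 members), -0.05 in cones (8), 0.29 in rod bipolar-like sums (6), 0.27 in cone bipolar-like sums (5) and 0.31 in Müller-like sums (10), where the median over all genes tested lay between -0.02 and 0.01.

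In Müller-like sums the 3 members with the lowest p were Hmgb2, Rrm1 and Mcm3. Rrm1 was at 14.9, 20.9 and 19.7 CPM in OIR and 12.8, 15.7 and 10.3 in Ctrl, overlapping (log2 fold change 0.41 ± 0.218, edgeR adjusted p = 0.450). Mcm3 was at 4.37, 7.70 and 4.05 in OIR and 3.59, 3.24 and 2.46 in Ctrl, without overlap (log2 fold change 0.66 ± 0.358, edgeR adjusted p = 0.460). Mcm6 lay apart as well, at 3.91, 3.65 and 4.04 in OIR and 2.56, 3.24 and 2.95 in Ctrl (edgeR adjusted p = 0.679). Over 4628 barcodes Mki67 had 3, 2 and 5 UMIs in OIR and 1, 1 and 2 in Ctrl, and Top2a 6, 4 and 2 in OIR and 5, 0 and 0 in Ctrl. Other mitotic genes had more: Nusap1, a spindle protein, had 32, 12 and 7 UMIs in OIR and 4, 15 and 3 in Ctrl, and Cdk1 22, 10 and 1 in OIR and 9, 1 and 1 in Ctrl, both overlapping in CPM. Cdc20 had 11, 4 and 8 UMIs in OIR and 2, 1 and 0 in Ctrl, without overlap in CPM but too few for a test. In rods Mki67 had 1, 1 and 1 UMIs in OIR and 0, 3 and 5 in Ctrl, and Aurkb had 0 in all 6 samples. Some mitotic genes had more there too. Ccna2 had 75, 87 and 110 UMIs in rods of OIR and 40, 74 and 64 in Ctrl. Cenpe had 58, 90 and 80 in OIR and 43, 73 and 69 in Ctrl, and both genes overlapped in CPM. Rarer genes lay apart in rods. Cdc20 was higher in OIR, with 8, 11 and 11 UMIs against 4, 3 and 3 in Ctrl. Tpx2 was also higher, with 4, 5 and 12 UMIs against 2, 3 and 4, and Mcm5 lower, with 4, 4 and 4 against 6, 5 and 7. In CPM the groups of these genes did not overlap, and their counts were too few for a test.
At this depth UMIs of Mki67 were thus near 0 in Müller-like and rod-like sums of both groups, where Hmgb2 was called higher in OIR.
In microglia-like sums, from the resident macrophages, 0 of 3 members tested were called (0.481% of genes higher, 0.0801% lower). Pcna was at 59.2, 118 and 31.5 in OIR and 44.4, 31.4 and 49.0 in Ctrl (edgeR adjusted p = 0.672), and Mcm3 at 21.9, 23.7 and 38.8 in OIR and 22.2, 40.4 and 30.1 in Ctrl (edgeR adjusted p = 0.993), both overlapping.

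A barcode was counted as rich in cell cycle genes when at least 3 of the 32 were detected, which held for 2416 of 38995. The share was 11.5%, 8.64% and 5.37% in OIR and 7.16%, 3.83% and 1.29% in Ctrl. The 2 groups overlapped (8.51% ± 3.08 against 4.097% ± 2.94, SD, n = 3), while each OIR sample lay above the Ctrl sample of the same number. With 3 samples against 3 an exact permutation test cannot go below p = 0.1, and for this share, which is a score over the list, no p is given.
In rod bipolar-like barcodes the share was 9.91%, 20.9% and 23.6% in OIR and 3.65%, 4.24% and 3.16% in Ctrl. In cone bipolar-like barcodes it was 12.7%, 20% and 19.2% in OIR and 4.08%, 5.81% and 3.30% in Ctrl. In microglia-like barcodes it was 21.8%, 23.7% and 13.1% in OIR and 11.2%, 8.33% and 4.23% in Ctrl.
In these 3 types and in rods (3.40%, 3.28% and 1.96% against 1.91%, 1.27% and 0.478%) the groups did not overlap.
In Müller-like barcodes it was 17.5%, 18.2% and 11.2% in OIR and 7.07%, 15.1% and 6.43% in Ctrl, in cone-like barcodes 20.4%, 43.3% and 24.3% against 15.3%, 21.8% and 14.9%, and in amacrine-like barcodes 25.7%, 8.11% and 14.5% against 17.1%, 8.70% and 14.3%. These 3 types overlapped. Rods, which do not divide, passed the limit in up to 3.40% of barcodes, with a median of 1401 to 3092.5 UMIs per barcode in the 6 samples.

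Hmgb2 and sequencing depth moved with this share. Without Hmgb2 among the counted genes it averaged 3.49% in OIR and 1.77% in Ctrl over all kept barcodes, and in rods 0.562% and 0.278%. It averaged 7.31% and 1.64% in rod bipolar-like barcodes, 8.69% and 2.20% in cone bipolar-like ones and 10.6% and 3.86% in microglia-like ones. When each barcode was thinned to 1000 UMIs, leaving out 253 to 874 shallower barcodes per sample, it was 0.477%, 0.323% and 0.226% in OIR and 0.116%, 0.0967% and 0.0956% in Ctrl. Thinned rod bipolar-like barcodes gave 0% in all 6 samples, cone bipolar-like ones 0.391% ± 0.505 in OIR and 0.0352% ± 0.0610 in Ctrl, and microglia-like ones 2.18% ± 2.75 and 0.407% ± 0.704, so that the groups did not stay apart in these 3 types. With both changes the share over all kept barcodes was 0.358%, 0.0808% and 0.0150% in OIR and 0.0289%, 0.0193% and 0% in Ctrl, where 21 of the 26 OIR barcodes came from replicate 1. The summed level of the 32 genes was 480 ± 53.3 CPM in OIR and 253 ± 18.2 in Ctrl. Without Hmgb2 it was 308, 161 and 141 in OIR and 133, 131 and 140 in Ctrl, and within rods 133 ± 6.22 against 137 ± 6.23. In rods the difference in this sum of 31 genes was smaller than the SD of either group.

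Barcodes in division stood out by their mitotic genes. Of the 19 members left when the DNA replication genes and Hmgb2 are set aside, at least 5 were detected in 34 barcodes (0.0872% of those kept), which held 0.987% of all UMIs. OIR had 29, 2 and 2 of them and Ctrl 1, 0 and 0. By cell type, 16 were mural-like (pericytes and smooth muscle cells, which wrap vessels), 11 VEC-like, 4 microglia-like, 2 astrocyte-like and 1 Müller-like, the last with only 714 UMIs. None of 25218 rod-like barcodes was among them, which allows a share of up to 0.0119%. The share of vascular cells in these barcodes was 27 of 34.
Without OIR replicate 1, 4 of 13128 OIR barcodes (0.0305%) and 1 of 19706 Ctrl barcodes (0.00507%) remained. These counts depend on the limit of 5 genes. With a limit of 3 of the 19 genes there were 68 barcodes, 43, 9 and 4 in OIR and 10, 2 and 0 in Ctrl. Of the 68, 18 were mural-like, 26 VEC-like, 9 microglia-like, 4 Müller-like and 2 rod-like.

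Among the 28 mural-like barcodes of OIR replicate 1, 16 had 5 or more mitotic genes (57.1%, exact 95% binomial interval 37.2% to 75.5%), against 0 of 63 in Ctrl replicate 1, which allows up to 4.76%. These 16 held a median of 28.5 of the 32 genes and a median of 37506 UMIs. In that sample Mki67 was detected in 17 of 28 mural-like barcodes (275 UMIs, 258 CPM) and Ube2c gave 603 UMIs (565 CPM), Cdk1 404 (378), Pclaf 351 (329) and Top2a 336 (315). In Ctrl replicate 1, Cdk1 had 1 UMI and the other 4 had 0 over 63 mural-like barcodes. OIR replicates 2 and 3 held only 3 and 1 mural-like barcodes and Ctrl replicates 2 and 3 held 5 each, so that the comparison between groups rests on 1 sample each and has no test.
Among the 40 VEC-like barcodes of OIR replicate 1, 9 had 5 or more mitotic genes (22.5%, interval 10.8% to 38.5%), against 0 of 196 in Ctrl replicate 1, which allows up to 1.53%. The other 2 were 1 of 3 VEC-like barcodes of OIR replicate 2 and 1 of 7 of OIR replicate 3. With a limit of 3 mitotic genes 15 VEC-like barcodes of OIR replicate 1 and 8 of Ctrl replicate 1 passed. Mki67 had 68, 25 and 5 UMIs in the VEC-like sums of OIR and 0 in each of the Ctrl samples, over 50 and 216 barcodes.
The intervals and limits cover counting error only, and the cells of 1 sample are not replicates of OIR.

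The dividing vascular barcodes held markers of their type, at a lower level than other barcodes of that type. All 16 mural-like ones held Rgs5, Pdgfrb and Acta2, which mark pericytes and smooth muscle, and 1 held Cldn5, an endothelial junction gene. All 11 VEC-like ones held Cldn5 and Pecam1, while 2 of them also held Rgs5 and 3 held Acta2. Mural markers summed to 16214 CPM in the former and 791 in the latter, VEC markers to 475 and 7399, and rod markers to 605 and 183. Müller markers were the second highest of the listed classes in both, at 6135 and 6064 CPM. In barcodes with fewer than 3 mitotic genes mural markers were at 28803 CPM in mural-like ones and VEC markers at 15653 in VEC-like ones. Müller markers were at 4354 CPM in those mural-like barcodes and 4879 in those VEC-like barcodes. The 2 astrocyte-like ones had 0 UMIs of the astrocyte markers, so that their name is uncertain. Clustering without integration gave no astrocyte-like cluster, so they could not keep that type in it. Microglia markers summed to 9499 CPM in the 4 microglia-like barcodes, with 49.6 in the lowest of them, where 29706 was the level in microglia-like barcodes with fewer than 3 mitotic genes. Without integration 32 of the 34 kept their type.
They were also large: 25 of the 34 had more than 5000 detected genes, the upper limit stated in the study, and with that limit 8 OIR and 1 Ctrl barcodes remained. Mural-like barcodes had a median of 34949 UMIs in OIR replicate 1 and 7947 in Ctrl replicate 1, and VEC-like barcodes 18803 and 9288. Scrublet, a doublet caller, placed none of the 34 among the highest scores. The part of depth in these counts was not tested.

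**Figure D3:**
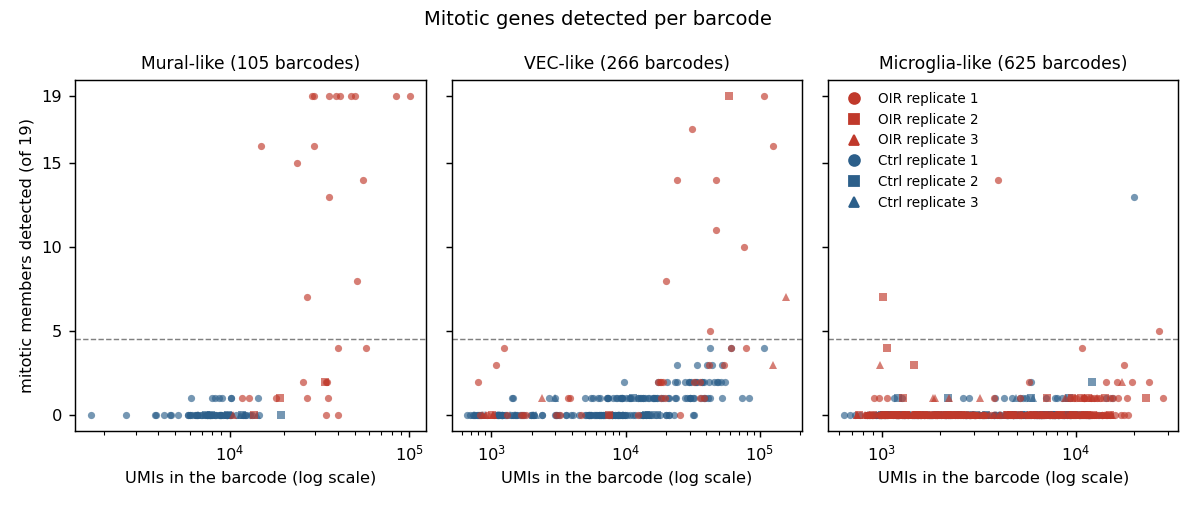
Each point is a barcode, placed by its UMIs (horizontal axis, log scale) and by how many of the 19 mitotic genes it held (vertical axis); colours give the group and shapes the replicate, and the dashed line lies just under the limit of 5 genes. In mural-like barcodes all 16 points above the line are OIR replicate 1, in VEC-like barcodes 9 of 11 are, and no Ctrl point is above it except 1 microglia-like barcode.

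These 34 barcodes held most of the UMIs of some members and a small part of those of others. For 15 of the 32 genes they gave over 50% of all UMIs: 3 DNA replication genes, 7 cyclin and kinase genes and 5 chromosome and spindle genes. The share was 91.4% for Aurkb, 90.1% for Top2a, 87.4% for Ube2c, 86.5% for Mki67 and 85.7% for Bub1. Other mitotic genes stayed under 50%: Cenpe 21.1%, Aurka 24.4%, Plk1 24.6%, Ccna2 29.9%, Kif11 33.7%, Kif23 36.6% and Nusap1 43.5%. Since the 19 mitotic genes chose the barcodes, high shares of those are no finding. Among the 12 DNA replication genes, which did not choose them, the share was 81.8% for Tk1, 77.4% for Rrm2 and 54.0% for Pclaf, which binds PCNA at the replication fork.
It was 1.83% for Pcna, 4.16% for Mcm4, 4.61% for Mcm7 and, outside the replication genes, 5.05% for Hmgb2.
The list thus held genes with most of their UMIs in these few barcodes and genes with nearly all of them elsewhere.

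**Figure D4:**
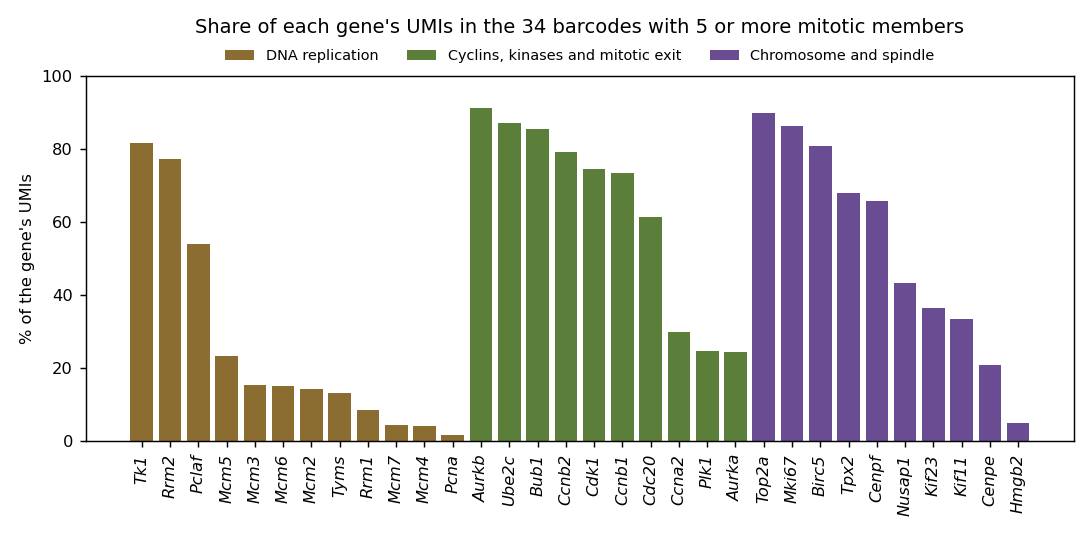
Share of each gene's UMIs (vertical axis, percent, from 0 to 100) that lay in the 34 barcodes with 5 or more mitotic genes; bars are coloured by role group and ordered within it. Bars range from 91.4% for Aurkb to 1.83% for Pcna, with Tk1, Rrm2 and Pclaf apart from the other DNA replication genes.

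In VEC-like sums, tested over all 6 samples despite few barcodes, 2 members had enough counts and Pclaf was called (0.422% of the 3083 genes tested were higher and 0.616% lower). Pclaf passed the filter on low counts through its OIR levels alone. Its call therefore leans on the same high OIR values that let it enter the test, and its adjusted p and ratio are given as description only. Pclaf (ENSMUSG00000040204, chr9:65890237-65903266 on GRCm38) had 71, 5 and 17 UMIs in OIR (65.4, 74.3 and 58.8 CPM) and 1, 1 and 0 in Ctrl (0.333, 17.4 and 0 CPM), and the groups did not overlap. The edgeR adjusted p was 0.00703. The ratio of the pooled levels, 93 UMIs against 2, was 100.4 with an exact 95% interval of 27.0 to 841 for counting error only. Ctrl replicate 1 gave most of the pooled Ctrl UMIs, and without it the ratio, 93 UMIs against 1, was 7.46 with an interval of 1.31 to 298, a setting chosen after seeing the data. The gene was not tested without OIR replicate 1, OIR replicate 3 or Ctrl replicate 1, nor with at most 5000 genes per barcode. In these settings it did not pass the filter on low counts. The limit of that filter depends on the total UMIs of the samples in the fit. Leaving out Ctrl replicate 1 took away only 1 Pclaf UMI. Clustering without integration gave 0 calls among the members. Hmgb2 was at 376, 1604 and 201 CPM in OIR and 164, 69.5 and 51.5 in Ctrl, without overlap, with a log2 fold change of 2.60 ± 0.729 and an edgeR adjusted p of 0.116. The value of 1604 comes from 3 barcodes, 1 of them dividing. Kif23, a kinesin of cell separation, had 152 UMIs in the VEC-like sum of Ctrl replicate 1, where no barcode reached 5 mitotic genes, and 35 in OIR replicate 1.

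A list of 57 other cell cycle regulators (G1 cyclins, cyclin-dependent kinases and their inhibitors, the retinoblastoma and E2F families, DREAM subunits, licensing and checkpoint genes) was read from the same fits. Over all kept barcodes 0 of 52 tested were called in edgeR, 5 had an unadjusted p under 0.05, and DESeq2 called 1. In the same edgeR fit the p of 0.0505 of Birc5 ranked 1015 among all 15492 genes tested. The 5 and the DESeq2 call are not read as results about the list. By type, 1 of 39 was lower in rods, 2 of 32 were higher in rod bipolar-like sums, 1 of 31 in cone bipolar-like sums and 1 of 44 in Müller-like sums. In cone-like (35 tested), amacrine-like (15), microglia-like (17), RPE-like (5) and VEC-like sums (10) edgeR called 0. Their median log2 fold change was 0.07 in rods, 0.09 in rod bipolar-like, 0.03 in cone bipolar-like and 0.01 in Müller-like sums.
Each count is a larger share of the regulators tested than the share of all genes called in that direction in the same type, and each rests on 1 or 2 genes.

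The 4 calls in neurons were a licensing kinase and 3 inhibitors. Cdc7, the kinase that activates the MCM helicase, was at 13.5, 13.7 and 16.1 CPM in rods of OIR and 20.8, 19.97 and 28.1 in Ctrl. Its log2 fold change was -0.83 ± 0.167 and its edgeR adjusted p 0.0399. The call was lost without any sample other than Ctrl replicate 1 (adjusted p = 0.0625, 0.186 and 0.131 without OIR replicates 1, 2 and 3, and 0.122 and 0.152 without Ctrl replicates 2 and 3) and with the Xist term (0.270).
The inhibitors were higher in OIR bipolar cells. Cdkn1c, which encodes p57, was at 26.9, 43.6 and 27.9 in rod bipolar-like sums of OIR and 12.5, 9.17 and 14.3 in Ctrl (log2 fold change 1.36 ± 0.245, edgeR adjusted p = 0.00774, and 0.0631 without OIR replicate 2). Cdkn2c, which encodes p18, was at 24.6, 23.7 and 27.2 in the same sums of OIR and 13.6, 8.402 and 10.2 in Ctrl (log2 fold change 1.06 ± 0.239, edgeR adjusted p = 0.0289). Its adjusted p was 0.0711, 0.0887 and 0.0964 without OIR replicates 1, 2 and 3, and 0.115 and 0.0809 without Ctrl replicates 2 and 3, and in edgeR 0.167 with the Xist term and 0.0510 with at most 10% mitochondrial counts.
In cone bipolar-like sums Cdkn1a, which encodes p21, was at 36.9, 44.6 and 27.3 in OIR and 11.9, 0 and 4.23 in Ctrl (log2 fold change 1.94 ± 0.401, edgeR adjusted p = 0.0399). It was not called by DESeq2 (adjusted p = 0.308) or without OIR replicate 1 (edgeR adjusted p = 0.0991), OIR replicate 2 (0.172) or Ctrl replicate 3 (0.0802), and it had too few counts for a test with at most 5000 genes per barcode. In each of these 4 genes the groups did not overlap. Cdkn1a also lay higher in OIR without overlap in rod-like sums (18.7, 60.1 and 20.7 against 8.22, 0.651 and 1.25), and in cone-like, rod bipolar-like and microglia-like sums. It overlapped in amacrine-like, Müller-like, RPE-like and VEC-like sums. Cdkn1c lay higher in rod-like sums too (103, 119 and 104 against 80.1, 72.7 and 58.0) but overlapped in cone bipolar-like and cone-like sums. Neither gene was called in rods. Clustering without integration set 110 lens-like barcodes apart, 109 of them from OIR replicate 2, while the main clustering named no lens cluster. Rod-like barcodes with fewer than 3 mitotic genes held 27359 UMIs of lens markers and 48662 of red blood cell markers. The part of such barcodes in the rod-like values was not tested.

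In Müller-like sums the G1 cyclin Ccnd2, which activates Cdk4 and Cdk6, was higher in OIR. It was at 42.3, 15.2 and 26.8 CPM in OIR and 1.88, 6.47 and 3.44 in Ctrl, without overlap, and its log2 fold change was 2.83 ± 0.510 with an edgeR adjusted p of 0.0453. The adjusted p was 0.110 and 0.09998 without OIR replicates 1 and 3, and 0.0626, 0.111 and 0.135 without Ctrl replicates 1, 2 and 3. With the Xist term it was 0.0661, with at most 10% mitochondrial counts 0.0603, and with clustering without integration 0.192 in edgeR, the last with a log2 fold change of 1.78.
Ccnd1, the sister cyclin, was at 277, 158 and 241 in OIR and 83.6, 133 and 126 in Ctrl, also without overlap (log2 fold change 0.94 ± 0.2495, edgeR adjusted p = 0.119). Ccnd3 was at 240, 165 and 171 in OIR and 188, 181 and 167 in Ctrl (log2 fold change 0.05 ± 0.190, edgeR adjusted p = 0.947).
Of the inhibitors in these glia, Cdkn1c was at 231, 370 and 298 in OIR and 197, 174 and 216 in Ctrl, without overlap (log2 fold change 0.55 ± 0.173, edgeR adjusted p = 0.181). Cdkn1a was at 60.9, 132 and 15.4 in OIR and 63.4, 30.4 and 19.7 in Ctrl (edgeR adjusted p = 0.676), and Cdkn1b, which encodes p27, at 299.6, 381 and 337 in OIR and 374, 283 and 300.5 in Ctrl (edgeR adjusted p = 0.978), both overlapping.

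**Figure D5:**
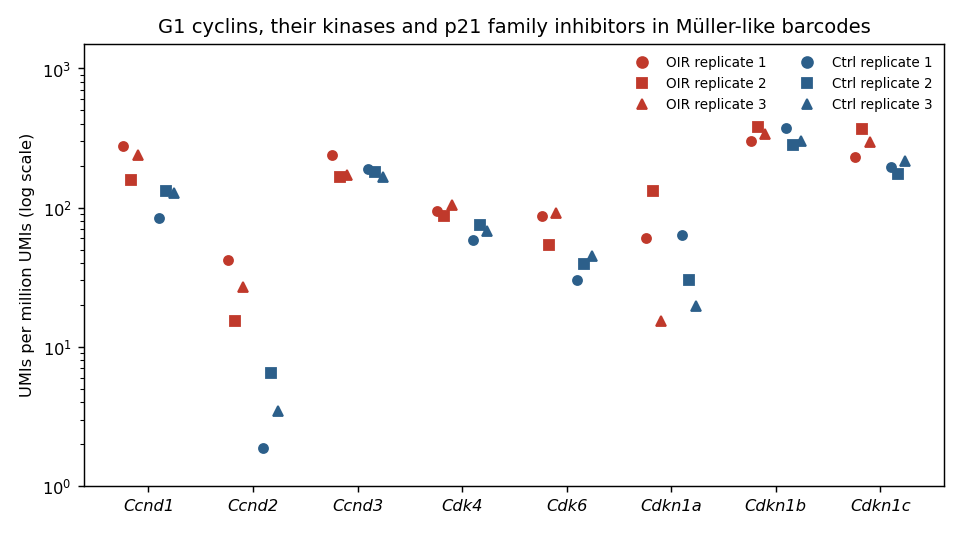
G1 cyclins, their kinases and 3 inhibitors in Müller-like barcodes (vertical axis, CPM, log scale); red symbols are the 3 OIR samples and blue symbols the 3 Ctrl samples. Ccnd2 shows the widest gap, 15.2 to 42.3 in OIR against 1.88 to 6.47 in Ctrl, while Ccnd3, Cdkn1a and Cdkn1b overlap.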

How the data were processed

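Retinas were dissociated with hyaluronidase and DNase I, captured with the Chromium 3′ v3 kit and sequenced on an Illumina NovaSeq. The authors deposited whole-number UMI counts per gene and barcode for each sample, filtered by Cell Ranger and not normalized. The study's methods name Cell Ranger 3.0.2 and a human build, while the matrix headers give version 3.1.0, the labels mm10, and the rows are mouse genes. Of 47631 deposited barcodes, those with at least 500 genes and at most 20% mitochondrial counts were kept, with no upper limit on genes. Doublets were not removed, because Scrublet's automatic threshold marked 0 barcodes in 4 of 6 samples; leaving out its highest scores was an alternative.

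Clusters came from Seurat 5.3.0 (CCA integration, 15 principal components, resolution 0.5) with the 29 cell cycle genes among the variable genes removed, and were named from marker lists. Counts were summed per sample and type and tested with edgeR 4.0.16 (TMM, filterByExpr, quasi-likelihood, no covariate) in R 4.3.3; a type entered when each sample held 10 or more of its barcodes, with VEC-like sums as the exception. DESeq2 1.42.0 and clustering with scanpy 1.11.5 were alternatives. Shares and intervals were computed in Python 3.11.15 (scipy 1.17.1, numpy 2.4.6). Binomial and Poisson intervals are exact at 95%, and a count of 0 was given the limit of 3 counts; both cover counting error only. Tested on simulated counts, the fit recovered 44% and 98% of 200 genes changed 2- and 4-fold in Müller-like sums, 41.5% and 100% in microglia-like sums, and 2% and 90% in VEC-like sums. In the same order, 6.38% and 10.1%, 8.79% and 3.85%, and 33.3% and 6.25% of the genes called were false calls.

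Replicate numbers were checked by the correlation of deviations of same-numbered samples from their group means. It was 0.677, 0.327 and 0.605 for all barcodes and over 0.1 for every pair in cone-like and both bipolar sums, but not in the other types. In these sums the numbers were read as pairing the samples. The main tests still held no replicate block in any type, so their p-values leave this pairing out. The block was run as an alternative only. In rods it was 0.395, 0.0858 and 0.354 and in Müller-like sums 0.425, 0.0407 and 0.426, with replicate 2 under 0.1 in both. Nothing in the labels ties the replicates to litters, so p-values measure the spread between these samples.

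The members and lists were chosen with earlier results of these data known. Values are given for members called in any type, the 3 with the lowest p in Müller-, microglia- and VEC-like sums, the 3 with the most UMIs per role, Mki67 and Top2a, and regulators called or fixed by name. Plk1, Mcm7 and Cenpe, the values of Mcm6 by type, the cone values of Pcna and Mcm2, and Kif23 were added after their values were seen. So were the rod values of Cdkn1a, Cdkn1c, Ccna2, Cenpe, Cdc20, Tpx2 and Mcm5, and the Müller-like values of Cdc20.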

Additional observations from a re-analysis of the deposited data

How the results depend on the processing

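Each value was recomputed under up to 14 alternatives. Of the values that answer a comparison, 487 were labelled the same, 83 moved and 7 reversed. A share or summed level was the same when its difference kept its sign, whatever its p. A count of calls was the same when it stayed equal or close, which includes counts that were 0 in both. Leaving Hmgb2 out and, for the barcodes in division, leaving out OIR replicate 1 or those over 5000 genes were chosen after seeing the data. For the difference in the share with 3 or more members (OIR minus Ctrl, in percentage points), rod-like barcodes gave -0.00541 with Hmgb2 left out and thinning, and rod bipolar-like, cone bipolar-like, amacrine-like, Müller-like and RPE-like barcodes 0. Thinning alone gave 0 in rod bipolar-like, amacrine-like and RPE-like barcodes, and leaving out Hmgb2 alone gave 0 in RPE-like ones. Counting 3 of the 19 mitotic genes gave 0 in cone bipolar-like and RPE-like barcodes and -0.190 in amacrine-like ones, where at most 5000 genes gave -1.14 and leaving out a sample -2.06 to 6.74. The summed level without Hmgb2 differed by -3.62 CPM in rods and -5.60 in cones, and by -2.16 in RPE-like sums with at most 10% mitochondrial counts.

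With the replicate block, members called were 1 over all barcodes, 3 in rods and 2 in rod bipolar-like sums. In rods these were Hmgb2, higher, and Plk1 and Mcm7, lower (edgeR adjusted p = 0.0252 and 0.0284). There the pair of replicate 2 fell short of the limit taken for pairing, at a correlation of 0.0858. Regulators called with the block were 9 in rods, 2 in cones and 4 in Müller-like sums. DESeq2 called 1 member over all barcodes and 2 in rods, and 1 regulator over all barcodes, 2 in rods, 0 in cone bipolar-like and 3 in Müller-like sums. Without a filter on low counts the members called were 2 in rods, 3 in rod bipolar-like, 1 in amacrine-like and 23 in VEC-like sums, and the regulators 2 in rods, 4 in cones, 5 in rod bipolar-like, 1 in amacrine-like, 4 in Müller-like, 1 in microglia-like and 4 in VEC-like sums. No share of all genes called is set beside the counts of members or regulators called in any alternative setting. That holds for the block, DESeq2, the fit without a filter, the Xist term and leaving out a sample. It also holds for the limits on mitochondrial counts and genes and for clustering without integration. None of these counts is read as a result about either list. The Xist term left 0 members in rods, cones and Müller-like sums, 0 regulators in rods and Müller-like sums and 1 in VEC-like sums. Leaving out a sample gave 0 to 3 members in rods, 0 to 1 in cones, Müller-like and VEC-like sums and 1 to 2 in rod bipolar-like sums, and 0 to 5 regulators in rods, 0 to 3 in rod bipolar-like, 0 to 1 in cone bipolar-like and amacrine-like and 0 to 2 in Müller-like sums. At most 10% mitochondrial counts left 2 regulators in rods, 1 in rod bipolar-like and 0 in Müller-like sums, at most 5000 genes left 0 members in VEC-like and 0 regulators in cone bipolar-like sums, and clustering without integration left 0 members in VEC-like and 0 regulators in Müller-like sums. OIR barcodes in division fell from 33 to 4 without OIR replicate 1 and to 8 with at most 5000 genes.

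Of single genes, the log2 fold change reversed in Müller-like sums for Ccnd3 (-0.0592 with the Xist term, -0.0447 with at most 5000 genes, -0.19 to 0.18 without a sample), Cdkn1b (-0.24, -0.0285 and -0.0542 to 0.17 in the same order) and Cdkn1a (-0.00951 to 1.38 without a sample), and in microglia-like sums for Hmgb2 (-0.19 with the Xist term) and Mcm3 (0.22 with that term, -0.29 to 0.14 without a sample). The cause of these changes was not tested. Few barcodes per sample limit what the VEC-like and mural-like values can show.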
